A study of Mus musculus with 8 samples.

Results

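Genomic regions bound by myogenin, by the acetyltransferase p300, or by both were compared in C2C12 myoblasts that had been differentiated for 24 h with 50 nM bexarotene (Bex). A region was formed from every ChIP-seq peak of the myogenin list and of the p300 list, and peaks of the 2 lists that shared at least 1 bp were joined. The 6642 myogenin peaks and 9154 p300 peaks gave 14090 regions, of which 4943 held myogenin alone, 7460 held p300 alone and 1687 held both. The series has 43759 peaks in its 4 peak lists, and the other 2 lists come from cells differentiated without the drug (Ctl).

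C2C12 is a mouse myoblast line of C3H origin, and all cells were moved from growth medium to low-serum medium to differentiate. Bexarotene, a selective agonist of the retinoid X receptor (RXR), was added at the moment of that change, and the Ctl cells were differentiated without it. The lists hold positions only, so the identity of the cells was not checked by marker genes. Each factor was precipitated with its own antibody and gave 1 library per condition, so no difference carries a replicate error and no p-value is given. Shares are printed with 95% Wilson intervals and differences with 95% Newcombe intervals, which cover counting error over regions and not the variation between cultures.

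Myogenin is a basic helix-loop-helix factor of terminal muscle differentiation that binds the E-box CANNTG as a partner of E-proteins. p300 carries no sequence preference of its own and is brought to DNA by other factors, where it acetylates histones, and its peaks are widely used to mark enhancers. AP-1, made of Fos and Jun proteins, and the Runx and Tead families are further DNA-binding factors of enhancers in myoblasts.

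The sequences of a few regions show what the classes look like at single-base level. Each is 100 bp of mm9 on the plus strand, written 5′ to 3′ around the peak center. Capitals mark E-boxes, that is CAGCTG, which is a palindrome, or CACCTG, which reads as CAGGTG on the other strand. They also mark the AP-1 site TGACTCA, which reads as TGAGTCA on the other strand. The regions were drawn from a limited set of genes, namely those of the gene lists with most regions of both and the genes with most regions of each class, with ties in alphabetical order. The 3 regions of both shown first lay in introns of Cnksr3, a scaffold protein gene, of Tcf12, which encodes an E-protein, and of Adam12, a metalloprotease gene of myoblast fusion. Cnksr3 and Tcf12 held 3 copies of CAGCTG each, the most in that set, and Adam12 held 2, as did regions of several other genes. Outside the set, a region of both at the troponin gene Tnnt2 also held 3 E-boxes.
Cnksr3, both, chr10:3163066-3163165: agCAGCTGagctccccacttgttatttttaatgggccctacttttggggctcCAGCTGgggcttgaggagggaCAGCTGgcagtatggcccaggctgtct
Tcf12, both, chr9:71722699-71722798: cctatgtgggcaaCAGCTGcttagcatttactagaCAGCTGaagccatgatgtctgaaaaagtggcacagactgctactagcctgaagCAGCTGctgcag
Adam12, both, chr7:141399730-141399829: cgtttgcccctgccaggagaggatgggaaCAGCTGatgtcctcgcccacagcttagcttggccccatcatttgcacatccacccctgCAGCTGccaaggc

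The regions of myogenin alone taken from the same set held both kinds of E-box. The region of Sorcs2, a sortilin-family receptor gene, held 1 CAGCTG and 2 sites of the CACCTG kind. The regions of Ccnd3, the cyclin D3 gene of cell cycle exit in muscle, and of Dlgap4, a scaffold protein gene, held 1 of each and tied with regions of several other genes. Outside the set, a region of myogenin alone at Mef2d also held 3 E-boxes.
Sorcs2, myogenin alone, chr5:36734529-36734628: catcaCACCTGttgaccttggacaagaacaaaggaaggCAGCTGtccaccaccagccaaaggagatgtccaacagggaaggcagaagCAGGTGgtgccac
Ccnd3, myogenin alone, chr17:47679121-47679220: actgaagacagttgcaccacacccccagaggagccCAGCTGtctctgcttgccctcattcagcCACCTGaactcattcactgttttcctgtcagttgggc
Dlgap4, myogenin alone, chr2:156543226-156543325: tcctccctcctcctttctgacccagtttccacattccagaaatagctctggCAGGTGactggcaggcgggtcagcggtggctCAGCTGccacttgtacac

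For p300 alone, the regions of that set whose AP-1 site lay closest to the center are shown. They belong to Col4a2, a basement membrane collagen gene, to Myod1, the gene of the determination factor MyoD, and to Wisp1, a matricellular protein gene. In the Wisp1 region the AP-1 site TGAGTCA directly abutted a CAGCTG, whereas the other two regions had no E-box of the counted kinds.
Col4a2, p300 alone, chr8:11411818-11411917: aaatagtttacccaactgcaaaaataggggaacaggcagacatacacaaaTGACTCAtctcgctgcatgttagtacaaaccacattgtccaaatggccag
Myod1, p300 alone, chr7:53593094-53593193: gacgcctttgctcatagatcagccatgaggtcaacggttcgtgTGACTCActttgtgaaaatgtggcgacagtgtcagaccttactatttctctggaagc
Wisp1, p300 alone, chr15:66725755-66725854: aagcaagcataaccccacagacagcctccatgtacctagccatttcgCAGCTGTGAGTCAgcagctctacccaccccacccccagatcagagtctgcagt

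Of the myogenin peaks, 1699 of 6642 overlapped a p300 peak, a share of 25.6% (24.5 to 26.6). Of the p300 peaks, 1694 of 9154 overlapped a myogenin peak, a share of 18.5% (17.7 to 19.3). The p300 peaks covered 0.0771% of the nuclear genome and the myogenin peaks 0.0574%, so both shares lay far above the covered fraction. In the Ctl lists, 33.0% of 5912 myogenin peaks overlapped p300 and 8.79% of 22051 p300 peaks overlapped myogenin. The libraries of the 2 factors came from separate immunoprecipitations of cell populations, and whether both proteins sat on the same DNA molecule was not measured.

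The geometry of the regions of both is given as a description, since overlap defined the class and peaks of this length that overlap have close centers. In 1668 of the 1687 regions of both (98.9%), 1 myogenin peak met 1 p300 peak, and the median overlap was 168 bp. The peak centers were a median of 51 bp apart, with quartiles of 23 and 93 bp, and 77.7% (75.6 to 79.6) lay within 100 bp of each other. The myogenin peak lay entirely inside the p300 peak in 19.6% of the regions, and the p300 peak inside the myogenin peak in 26.1%. An overlap of 50 bp or less was found in 59 regions (3.5%).

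For the classes of one factor alone, the distance to the other factor is likewise a description, since peaks that touched it had been removed by the class rule. Of the regions of myogenin alone, 7.22% (6.53 to 7.98) had a p300 peak within 1 kb, and the median distance to one was 39.5 kb. Of the regions of p300 alone, 4.83% (4.36 to 5.34) had a myogenin peak within 1 kb, with a median distance of 72.2 kb. Overlap occurred on all autosomes and on the X chromosome, from 17.2% of the myogenin peaks on chromosome 11 to 36.9% on chromosome 14.

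Peaks in regions of both were longer than peaks alone, and the deposited length is the only trace of peak size in the lists. The median myogenin peak was 252 bp in regions of both and 168 bp, the shortest length in that list, in regions of myogenin alone. The median p300 peak was 234 bp in regions of both and 158 bp, again the shortest length, in regions of p300 alone. The share of myogenin peaks that overlapped p300 was higher in longer peaks, from 15.2% of the shortest to 58.0% of those over 500 bp. With every peak set to 200 bp around its center the same groups gave 15.0% and 43.5%. For p300 peaks the share went from 12.1% to 44.1%, and from 12.2% to 34.5% with 200 bp windows.

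Regions of both were rarer at promoters than regions of either factor alone. Within 1 kb of a protein-coding transcription start site (TSS) lay 755 regions of myogenin alone (15.3%, 14.3 to 16.3), 1058 of p300 alone (14.2%, 13.4 to 15.0) and 75 of both (4.45%, 3.56 to 5.54). Myogenin alone exceeded both by 10.8 percentage points (9.36 to 12.2), and p300 alone exceeded both by 9.74 points (8.4 to 10.9). A filter added after seeing the data kept only regions whose peak of the shared factor was longer than the shortest of its list. With it the differences were smaller, 6.77 points (5.06 to 8.41) and 6.04 points (4.47 to 7.43). Without that filter, the 2 alone classes were close to each other at this distance, with a difference of 1.09 points (-0.176 to 2.38). The shares also differed with the Ctl peaks at a region (myogenin alone, p300 alone and both in order). They were 9.24%, 9.03% and 4.90% where only p300 was called in Ctl, and 6.68%, 8.13% and 3.27% where both factors were. With only myogenin called they were 13.4%, 41.1% and 5.63%, and with neither 19.1%, 32.9% and 12.7%. The last share rests on 79 regions of both, and the 41.1% on 56 of p300 alone.

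The alone classes reached promoters in different ways. Of p300 alone, 10.1% lay within 200 bp of a TSS, against 4.75% of myogenin alone and 1.60% of both. Within 1 kb, p300 alone had 693 regions upstream and 365 downstream of the start, whereas myogenin alone was split into 365 upstream and 390 downstream. Farther out, 28.6% of myogenin alone lay 1 to 10 kb from a TSS, compared with 19.9% of both and 15.2% of p300 alone. The median distance was 13.9 kb for myogenin alone, 30.8 kb for p300 alone and 31.8 kb for both. Introns held 42.4% of myogenin alone, 42.9% of both and 35.9% of p300 alone, and 38.9%, 50.2% and 47.9% were intergenic.

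**Figure D1:**
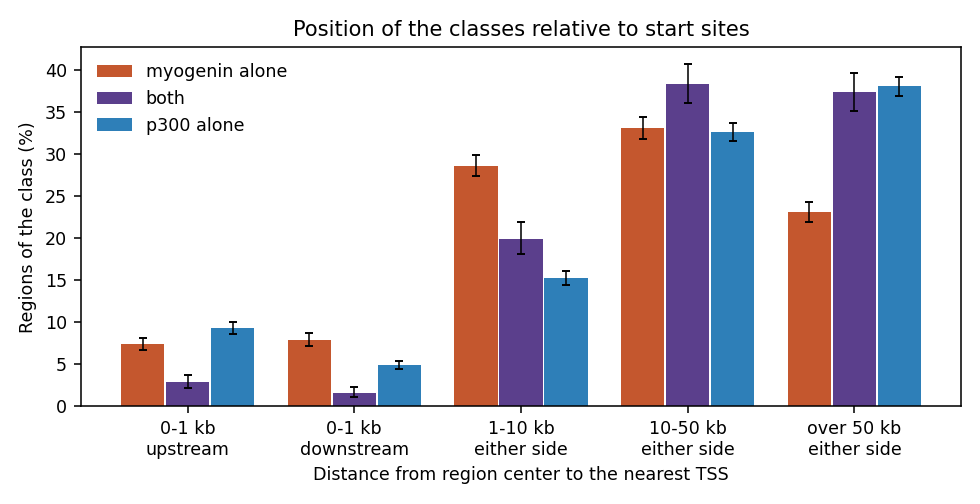
Share of the regions of each class (%, bars, with 95% Wilson intervals) by distance from the region center to the nearest protein-coding TSS, for myogenin alone (n = 4943), both (n = 1687) and p300 alone (n = 7460). Both factors together have the lowest bars on either side of the TSS, 2.85% upstream and 1.60% downstream, and myogenin alone has the highest bar at 1 to 10 kb, 28.6%.

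Counted over peaks, the share that met the other factor followed distance differently for the 2 factors. Of the myogenin peaks, 9.04% overlapped p300 within 1 kb of a TSS, 19.3% at 1 to 10 kb, 28.4% at 10 to 50 kb and 35.8% beyond 50 kb. Of the p300 peaks, 6.54% overlapped myogenin within 1 kb, and the share was 22.8% at 1 to 10 kb, 21.2% at 10 to 50 kb and 18.2% beyond. The myogenin share was higher at each farther step, whereas the p300 share was lowest at promoters and highest at 1 to 10 kb.

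Most regions of both under Bex were also p300 peaks in Ctl cells. Of the 1687 regions, 85.8% (84.1 to 87.4) overlapped a Ctl p300 peak and 63.8% (61.5 to 66.1) a Ctl myogenin peak. Both factors had been called there in Ctl in 54.4%, p300 only in 31.5%, myogenin only in 9.48% and neither in 4.68%. The Ctl p300 list holds 22051 peaks against 9154 under Bex, and since depth could not be read from the lists, depth and treatment cannot be told apart here.

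At the regions of myogenin alone, neither factor had been called in Ctl in 50.9%, 39.0% overlapped a Ctl myogenin peak, and 947 (19.2%, 18.1 to 20.3) overlapped a Ctl p300 peak. The regions of p300 alone overlapped Ctl p300 in 78.6% and Ctl myogenin in 4.54%. Followed in the other direction, the 1934 regions of both in Ctl were again both under Bex in 48.2%, myogenin only in 22.5%, p300 only in 15.5% and neither in 13.8%. Myogenin peaks that had been called in Ctl overlapped p300 under Bex in 35.7% (34.0 to 37.4), and those called only under Bex in 17.3% (16.1 to 18.5).

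**Figure D2:**
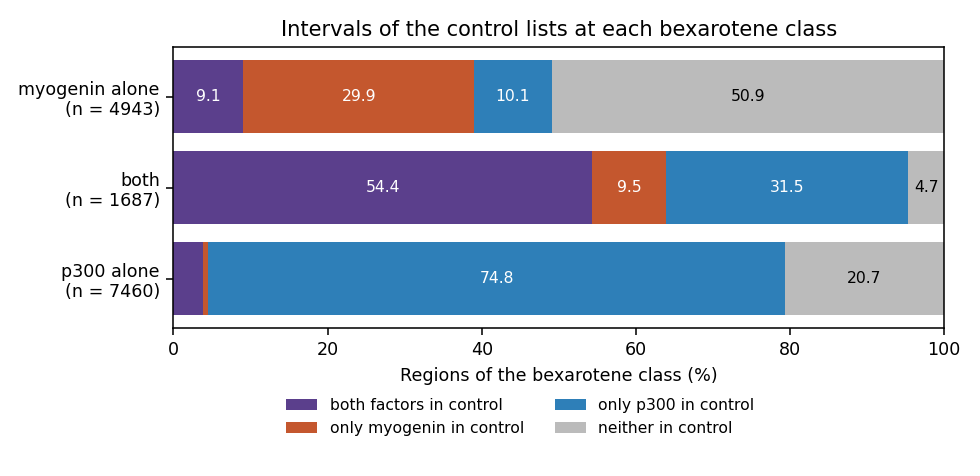
Share of the regions of each Bex class (%, stacked bars) that overlap Ctl peaks of both factors, of myogenin only, of p300 only, or of neither. The bar for both is mostly filled by Ctl p300 (54.4% with myogenin and 31.5% without), whereas 50.9% of myogenin alone has no Ctl peak of either factor.

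Within 50 bp of the peak center, the E-box separated the myogenin classes from p300 alone. CAGCTG or CACCTG was searched on both strands and occurred in 59.3% of myogenin alone (58.0 to 60.7), in 63.4% of both at the myogenin center (61.0 to 65.6), in 55.4% of both at the p300 center (53.0 to 57.8) and in 18.3% of p300 alone (17.5 to 19.2). Windows of the same length lying 2 kb to either side of the center and free of peaks held one in 10.2% to 12.1%. Both exceeded p300 alone by 45.0 percentage points (42.5 to 47.5), or by 37.1 points (34.6 to 39.6) with both classes read at the p300 center.

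Between both and myogenin alone the E-box share did not differ in a stable direction. At the myogenin center both was higher by 4.04 points (1.34 to 6.69). The difference was -0.93 points (-3.71 to 1.80) among regions over 1 kb from a TSS, and -2.09 points (-5.41 to 1.17) among regions whose myogenin peak was longer than the shortest of its list (1191 of both and 2126 of myogenin alone). It was -4.37 points (-8.21 to -0.62) when the p300 peak of the regions of both had to be longer as well, which left 814 of them. Of the 755 promoter regions of myogenin alone 30.2% held an E-box, against 64.6% of its regions farther away. The 75 promoter regions of both held one in 57.3% (46.1 to 67.9), and the 1058 of p300 alone in 12%.

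The 2 kinds of E-box were divided unevenly. CAGCTG, the palindromic kind, occurred in 54.2% of both at the myogenin center, 46.8% of myogenin alone and 14.6% of p300 alone, with 4.25% to 5.16% in flanking windows. CACCTG occurred in 14.3% of both and 21.4% of myogenin alone, a difference of -7.14 points (-9.11 to -5.06), and in 4.30% of p300 alone, below the 6.29% of its flanking windows. Of all E-box sites counted, 82.0% were CAGCTG in both and 71.4% in myogenin alone, against 37.7% and 40.4% in their flanks. Among regions with an E-box, 25.2% of both and 32.8% of myogenin alone held 2 or more.

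**Figure D3:**
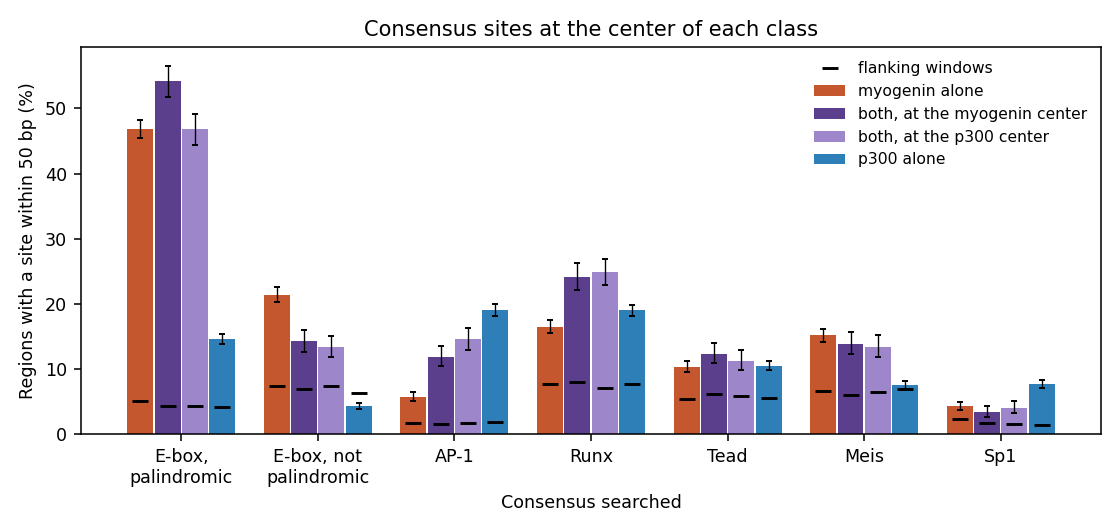
Share of regions (%, bars, with 95% Wilson intervals) with a consensus site within 50 bp of the center, for each class and, for both, at either peak center; black dashes give the flanking windows. The palindromic E-box bars reach 54.2% in both and 14.6% in p300 alone, the AP-1 bars run from 5.77% in myogenin alone to 19% in p300 alone, and the Runx bars are highest in both.

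Over all regions, the AP-1 site was most frequent in p300 alone and least frequent in myogenin alone. TGACTCA, searched on both strands, occurred in 1421 of 7460 regions of p300 alone (19%), in 14.6% of both at the p300 center, in 11.9% at the myogenin center (10.5 to 13.5) and in 5.77% of myogenin alone (5.15 to 6.45), with 1.55% to 1.83% in flanking windows. p300 alone exceeded both by 7.13 points (5.28 to 8.85), or 4.47 points (2.50 to 6.31) at the p300 center, and both exceeded myogenin alone by 6.15 points (4.54 to 7.89). Within 100 bp, an E-box and an AP-1 site stood together in 16.7% of both (15.0 to 18.6), 7.95% of myogenin alone and 7.99% of p300 alone. Neither was present in 14.2% of both, 23.4% of myogenin alone and 49.4% of p300 alone. The AP-1 excess of p300 alone over both at the myogenin center, within 50 bp, was not present throughout. At promoters, 5.48% of p300 alone held the site, against 10.7% (5.50 to 19.7) of the 75 regions of both. Where neither factor was called in Ctl, it stood in 8.82% of p300 alone and 8.86% of the 79 of both. Where only p300 was called in Ctl, the shares were 22.1% and 13.2%.

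Inside regions of both, each site sat more often closer to the center of the factor in whose class it was more frequent. Where the peak centers were at least 50 bp apart, the nearest E-box was closer to the myogenin center in 403 regions and to the p300 center in 284, that is 58.7% (54.9 to 62.3) for myogenin. The nearest AP-1 site was closer to the myogenin center in 78 regions and to the p300 center in 126, that is 38.2% (31.8 to 45.1). E-box density within 30 bp of the center was 0.895 sites per 100 bp in both and 0.948 in myogenin alone, and 0.231 in p300 alone. AP-1 density in the same span was 0.232 in p300 alone, 0.185 in both at the p300 center, 0.143 at the myogenin center and 0.0661 in myogenin alone.

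**Figure D4:**
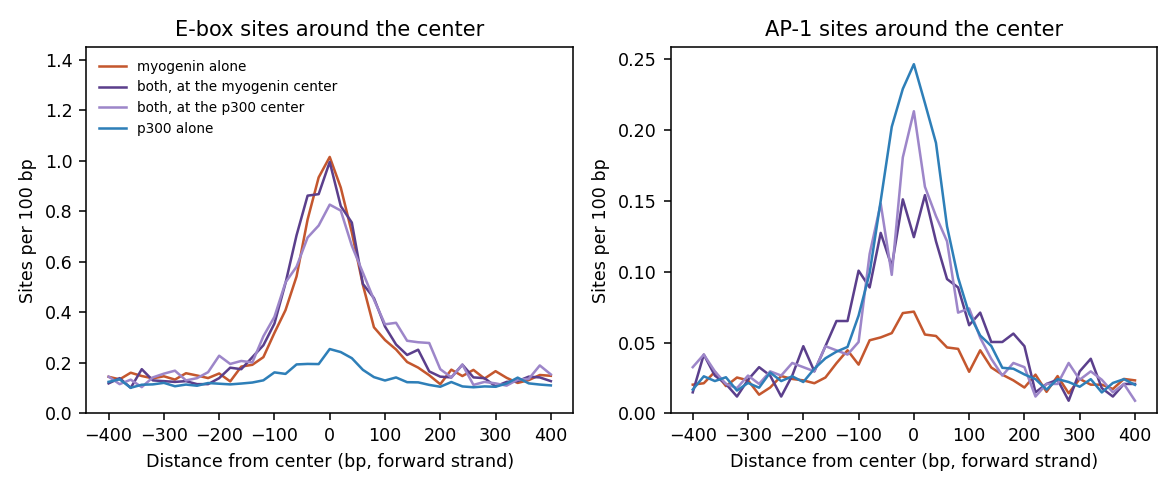
Density of E-box sites (left) and AP-1 sites (right) in sites per 100 bp against distance from the center in bp, for myogenin alone, both at either center, and p300 alone. The E-box curves of the myogenin classes peak at the center, where they average 0.948 and 0.895 within 30 bp, and the AP-1 curve is highest for p300 alone at 0.232.

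The share of overlapping peaks differed with the number of sites around the peak center, counted within 50 bp for E-boxes and within 100 bp to either side for AP-1. The AP-1 window is wider than the shortest peaks. Among peaks over 1 kb from a TSS, p300 peaks overlapped myogenin in 12.1% of those with no E-box, 38.7% with 1, 56.8% with 2 and 75.6% (60.7 to 86.2) of the 41 with 3 or more. Myogenin peaks overlapped p300 in 25.7% of those with no AP-1 site, 40.9% with 1 and 57.9% (45.0 to 69.8) of the 57 with 2 or more. This was seen in short and long peaks alike, since the share went from 14.4% to 33.9% among the shortest myogenin peaks and from 35.8% to 49.6% among the longer ones when at least 1 AP-1 site was present.

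The sites of a factor's own class did not show this order. Distal p300 peaks overlapped myogenin in 22.0% of those with no AP-1 site, 16.6% with 1 and 12.3% with 2 or more. Distal myogenin peaks overlapped p300 in 28.6% of those with no E-box, 31.4% of those with CAGCTG only, 21.4% (18.5 to 24.6) of those with CACCTG only and 17.0% (14.0 to 20.6) of those with both kinds. With an E-box present, distal p300 peaks overlapped myogenin in 44.6% without and 35.2% with an AP-1 site.

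Other consensus sequences were searched on both strands in the same windows. TGTGGT, the Runx core, occurred in 24.1% of both at the myogenin center, 16.5% of myogenin alone and 19% of p300 alone, with 7.15% to 8.05% in flanking windows, and both exceeded myogenin alone by 7.63 points (5.39 to 9.96). GGAATG, the Tead core, occurred in 12.4%, 10.4% and 10.5% in that order (both, myogenin alone, p300 alone), with 5.37% to 6.19% in flanks. TGACAG, the core of the Meis and Prep factors that assist myogenic factors, occurred in 13.9% of both, 15.2% of myogenin alone and 7.57% of p300 alone, the last close to its flanking 6.91%. The last is not independent of the E-box, since TGACAG ends in the bases with which CAGCTG begins.

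GGGCGG, the Sp1 box of promoters, occurred in 37.2% of the promoter regions of p300 alone (34.4 to 40.2) and 10.9% of those of myogenin alone (8.84 to 13.3). Of the 75 promoter regions of both, 6.67% held it at the myogenin center and 14.7% at the p300 center. It occurred in 1.44% to 2.41% of the flanking windows of all regions, and those of promoter regions were not counted separately. Over all regions of myogenin alone, its density was 0.0502 sites per 100 bp within 30 bp of the center. At 250 to 410 bp from the center the density was 0.0575. In p300 alone the same densities were 0.121 and 0.0540. The median GC content of 200 bp at the promoter regions was 66% for p300 alone and 55.5% for myogenin alone, and away from promoters it was 45.5% and 50.5%. The MEF2 consensus stood at 1.44% of myogenin alone, 1.60% of both and 1.17% of p300 alone, and no class exceeded its own flanking share, which reached 1.98% for both. AGGTCA, the half-site of RXR and its partner receptors, stood at 6.76% of myogenin alone, 6.11% of both at the myogenin center and 5.60% of p300 alone against 6.09% to 6.50% in their flanks, and at 7.11% (5.98 to 8.44) of both at the p300 center against 6.0% (5.23 to 6.86), and direct repeats of that half-site (0.245% to 0.384% of flanks) were found in 13 regions of myogenin alone, 1 of both at the myogenin center, 3 at the p300 center and 9 of p300 alone. A missing match says only that these letters were not in the window.

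Each region was assigned to the protein-coding gene with the nearest TSS within 50 kb. Of 22232 genes, 883 (3.97%) had a region of both, 2707 (12.2%) of myogenin alone, 3149 (14.2%) of p300 alone and 5202 (23.4%) of any class. Of the genes with both, 46.8% also had a region of myogenin alone and 50.8% one of p300 alone, whereas 33.8% of the genes with myogenin alone had p300 alone and 29.1% the reverse. The assignment uses distance only, and a region may act on another gene or on none.

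Sarcomere genes were mostly marked by myogenin alone. Of 34 genes of the contractile apparatus, 21 had a region of myogenin alone, 9 one of both and 4 one of p300 alone, which is 61.8%, 26.5% and 11.8% beside 12.2%, 3.97% and 14.2% of all genes. The 9 genes with both were Actc1, Actn3, Mybpc1, Myh1, Myh3, Myom2, Tnnt2, Tpm2 and Ttn, which encode actin, actinin, myosin, troponin, tropomyosin, titin and thick-filament proteins. Only Tpm2 and Myh1 had it within 1 kb of the start, at chr4:43536561-43536789, 38 bp upstream, and at chr11:67012994-67013245, 392 bp upstream. Myogenin alone lay within 1 kb of the start of 8, namely Acta1, Mybph, Myh3, Myl4, Mylpf, Myom2, Tnni2 and Tnnt1. These were 2 of the 10 regions of both and 8 of the 35 of myogenin alone at the list, all of which have a TSS within 50 kb. Of all regions with a TSS within 50 kb, 75 of 1057 of both and 755 of 3802 of myogenin alone lay within 1 kb. Of the 35 regions of myogenin alone at the list, 24 held an E-box and none an AP-1 site, beside 59.3% and 5.77% of all regions of myogenin alone.

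Mybph, which encodes a myosin-binding protein, had 2 regions of myogenin alone. No p300 peak was called at either in Bex or Ctl, which does not show that p300 was absent there. The first, at chr1:136089899-136090066, lay 42 bp upstream of the start, and the second, at chr1:136092572-136093029, lay in intron 3. The first was not called in Ctl, and the second was. Myog, the gene of myogenin itself, had 1 region of myogenin alone 6.66 kb upstream, at chr1:136179834-136180001. Their centers are shown because each carries 1 E-box, a CAGCTG at the Mybph start and at Myog and a CACCTG in the Mybph intron.
Mybph start, myogenin alone, chr1:136089933-136090032: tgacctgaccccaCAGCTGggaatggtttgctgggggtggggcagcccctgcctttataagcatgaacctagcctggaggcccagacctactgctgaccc
Mybph intron, myogenin alone, chr1:136092751-136092850: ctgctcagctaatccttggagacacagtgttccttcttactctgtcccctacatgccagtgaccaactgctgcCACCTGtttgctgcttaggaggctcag
Myog, myogenin alone, chr1:136179868-136179967: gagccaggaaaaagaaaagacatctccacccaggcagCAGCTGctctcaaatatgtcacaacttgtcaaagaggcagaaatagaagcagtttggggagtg

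Among extracellular matrix genes p300 alone was the most frequent class. Of 20 genes, 15 had a region of p300 alone (75%), 5 of myogenin alone (25%) and 1 of both (5%), beside 14.2%, 12.2% and 3.97% of all genes. With a limit of 10 kb in place of 50 kb, 9 of the 20 had p300 alone, 1 myogenin alone and none both. That is 45%, 5% and 0%, beside 8.28%, 7.78% and 1.66% of all genes at that limit. Myogenin alone was above the share of all genes at 50 kb and below it at 10 kb. The 41 regions of p300 alone included 6 at Thbs1, which encodes thrombospondin, 6 at Col4a2 and 5 each at Lox, the collagen cross-linking oxidase gene, and Col6a2, a collagen VI gene. Col4a2 was the gene with both, in intron 4 at chr8:11372054-11372428 and chr8:11382310-11382808, 32.7 and 22.3 kb from the nearest start. Of the 41 regions, 11 held an E-box and 7 an AP-1 site, beside 18.3% and 19% of all regions of p300 alone. Within 1 kb of a TSS lay 3 of the 41, beside 1058 of the 4623 regions of p300 alone with a TSS within 50 kb.

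Fusion and adhesion genes held all 3 classes. Of 15 genes, 6 had a region of both (40%), 5 of myogenin alone (33.3%) and 8 of p300 alone (53.3%), beside 3.97%, 12.2% and 14.2% of all genes. With a limit of 10 kb the counts were 2, 4 and 3 (13.3%, 26.7% and 20%), beside 1.66%, 7.78% and 8.28% of all genes at that limit. Cdh15, the M-cadherin gene, had 2 regions of both in intron 1, at chr8:125373091-125373606 and chr8:125374608-125375973, and the myogenin peak of the second was 1366 bp long. Tmem8c, the older symbol of the fusion protein gene myomaker, had 3 regions of myogenin alone, 1 of them 21 bp upstream of the start. Adam12, Itga7 (integrin alpha 7), Ncam1 (neural cell adhesion molecule) and Cdh2 (N-cadherin) had 1 region of both each.

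Gm7325, the annotated symbol of the fusion peptide gene myomixer, showed both patterns at one locus. A region of both at chr17:45752964-45753762 lay 14.1 kb upstream and was called for both factors in Ctl as well. The other 3 regions held myogenin alone, and the one at chr17:45738960-45739280 lay 69 bp upstream of the start and overlapped no called p300 peak in either condition, which does not show that p300 was absent there. The center of the upstream region held 2 copies of CAGCTG and that of the start 1 CAGCTG and 1 CACCTG, and the centers of the other two held neither E-box nor AP-1 site and are not printed.
Gm7325 upstream, both, chr17:45753141-45753240: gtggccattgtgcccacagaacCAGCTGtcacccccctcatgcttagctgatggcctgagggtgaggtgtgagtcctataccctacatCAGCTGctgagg
Gm7325 start, myogenin alone, chr17:45739070-45739169: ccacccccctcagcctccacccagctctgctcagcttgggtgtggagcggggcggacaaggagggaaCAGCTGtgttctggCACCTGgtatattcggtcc

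Of the 4 myogenic regulatory factor genes, 1 had a region of both, 2 of myogenin alone and 1 of p300 alone, beside 3.97%, 12.2% and 14.2% of all genes. Myod1 held all 3 classes far upstream of its start. Regions of both lay 34.8 kb upstream at chr7:53596896-53597211 and 23.1 kb upstream at chr7:53608525-53608903, and each was called for both factors in Ctl. Myogenin alone lay 26.2 kb upstream and p300 alone 38.7 kb upstream. The nearer region of both held 1 E-box and 1 AP-1 site within 50 bp of the myogenin center, and the farther one 1 E-box. Myf5 and Myf6 had no region of any class. These Myod1 sequences were added after their values were seen.
Myod1 farther, both, chr7:53596992-53597091: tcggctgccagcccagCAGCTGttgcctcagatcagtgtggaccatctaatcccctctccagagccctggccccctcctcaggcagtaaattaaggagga
Myod1 nearer, both, chr7:53608693-53608792: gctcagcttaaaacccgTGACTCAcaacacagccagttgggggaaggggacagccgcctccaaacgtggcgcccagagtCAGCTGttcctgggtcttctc

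Of 10 genes of the neuromuscular synapse, 3 had a region of both, 4 of myogenin alone and 2 of p300 alone, beside 3.97%, 12.2% and 14.2% of all genes. Chrng and Chrna1, which encode the gamma and alpha 1 subunits of the acetylcholine receptor, had it 180 bp and 177 bp upstream, at chr1:89102048-89102364 and chr2:73418346-73418723. Dok7, an adaptor of the receptor kinase MuSK, had it 14.0 kb downstream of the start. Chrng had 2 further regions of myogenin alone, 1.14 and 1.79 kb upstream, each with an E-box and neither called in Ctl.

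Of 17 calcium handling and excitation genes, 3 had a region of both (17.6%), 5 of myogenin alone (29.4%) and 2 of p300 alone (11.8%), beside 3.97%, 12.2% and 14.2% of all genes. Cacng1, the gamma subunit gene of the muscle calcium channel, had 3 regions of both and no other, 2.03 kb downstream, 120 bp upstream at chr11:107577850-107578148 and 15.3 kb upstream. p300 had been called in Ctl at all 3 and myogenin at 1, beside 85.8% and 63.8% of all regions of both. Ryr3, a ryanodine receptor gene, had a region of both 552 bp upstream with 2 E-boxes. Cacna2d1, another channel subunit gene, had 1 region of each class.

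**Figure D5:**
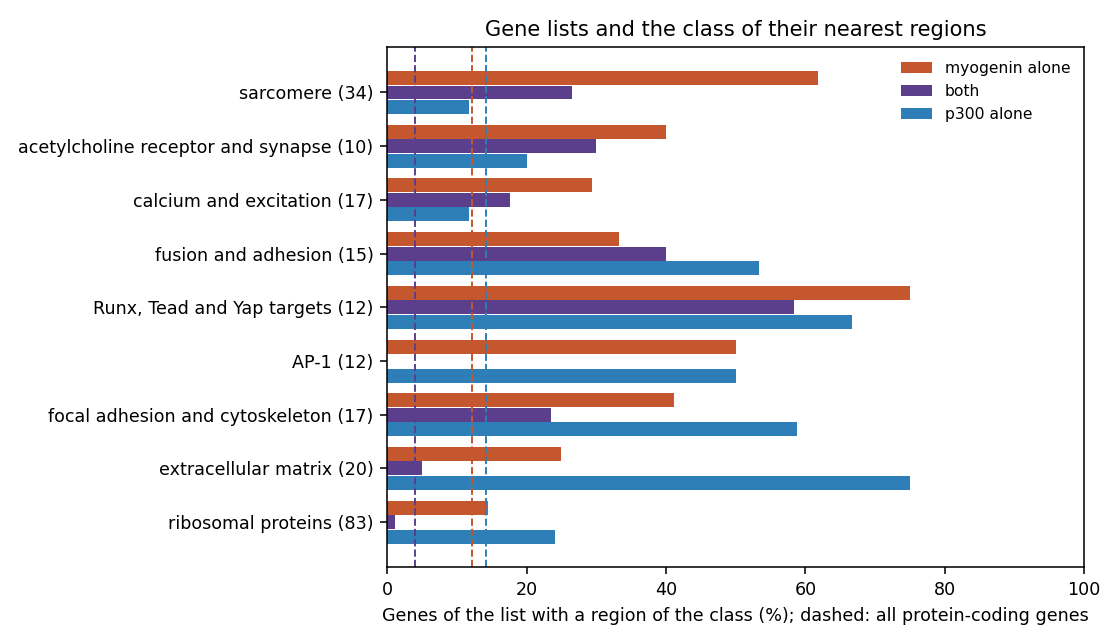
Share of the genes of each list (%, bars, number of genes in parentheses) that are nearest, within 50 kb, to at least 1 region of a class; dashed lines give 12.2% (myogenin alone), 3.97% (both) and 14.2% (p300 alone) of all protein-coding genes. Sarcomere genes stand at 61.8% for myogenin alone and 11.8% for p300 alone, and extracellular matrix genes at 25% and 75%.

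The counts of the following lists stand beside 3.97%, 12.2% and 14.2% of all genes for both, myogenin alone and p300 alone. Of 12 AP-1 genes, none had a region of both, 6 had myogenin alone and 6 had p300 alone, and Jun had 4 of p300 alone. Of 12 genes of Runx, Tead and Yap targets, 7 had both, 9 myogenin alone and 8 p300 alone. Runx1 had 2 regions of both, 1.77 kb upstream of a start and 436 bp downstream of another, and Tead1, Tead4, Runx3, Ctgf, Ankrd1 and Amotl2 had 1 each. Of 4 Mef2 genes, 1 had both, 2 myogenin alone and 1 p300 alone. Mef2a, the gene of a MEF2 partner of myogenic factors, had 1 region of each class, with both at chr7:74529968-74530817 and an overlap of 734 bp, and Mef2d had 5 of myogenin alone. Of 7 E-protein and Id genes, 1 had both, 3 myogenin alone and 5 p300 alone, the first being Tcf12.

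Of 11 genes of RXR and RAR with target genes, 3 had both, 4 myogenin alone and 4 p300 alone. With a limit of 100 kb the counts were 5, 4 and 5, beside 4.88%, 13.5% and 16.1% of all genes at that limit. Within 50 kb the genes with both were Rara, Angptl4 and Tgm2. Rara, a retinoic acid receptor gene, had both 4.93 kb from a start, in an overlap of 30 bp, Angptl4, a lipase inhibitor gene, 2.06 kb upstream, and Tgm2, the tissue transglutaminase gene, 44.4 kb downstream. Of 17 focal adhesion and cytoskeleton genes, 4 had both (Vcl, Lpp, Myh9 and Pxn), 7 myogenin alone and 10 p300 alone. Of 10 cell cycle genes, 2 had both (Ccnd3 and Rb1), 3 myogenin alone and 2 p300 alone. Of 10 glycolysis and creatine kinase genes, 1 had both (Gapdh), 2 myogenin alone and 1 p300 alone. The 83 genes with a ribosomal protein symbol include the kinase-like gene Rps6kl1, which had no region. Of the 83, 1 had both (Rpl29, 1.20%), 12 myogenin alone (14.5%, near the 12.2% of all genes) and 20 p300 alone (24.1%, beside 14.2%). Their regions of p300 alone numbered 22, of which 18 lay within 1 kb of a TSS, at 18 of the 20 genes. Among all regions of p300 alone with a TSS within 50 kb, 1058 of 4623 lay within 1 kb.

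The genes with most regions of both were mainly outside these lists. Of the genes named here by number of regions, Wisp1, Azin1, Myo10, Plec and Mtss1 lie on chromosome 15, which had the most peaks per Mb in both lists (4.97 for myogenin and 6.20 for p300), and its part in the ranking was not tested. Gfra1, a receptor gene for glial cell line-derived factors, had 5, all within its introns 1.74 to 31.4 kb from the start, and p300 had been called in Ctl at all 5, near the 85.8% of all regions of both. None of the 5 held an E-box within 50 bp of the center, and 1 held an AP-1 site, beside 63.4% and 11.9%. Gm14221 had 5, from 1.29 kb upstream to 16.7 kb downstream of the start. Wisp1 had 4 upstream, at 1.99, 5.08, 7.38 and 13.4 kb, and 3 of these held an E-box. Cnksr3, Lrch1, Pip4k2a and Tbc1d1, a Rab regulator gene of glucose uptake in muscle, also had 4 each, and Arhgap22, Atoh8 and Azin1 had 3.

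Of the genes with most regions of one factor alone, Plec, Mtss1, Sorcs2 and Nfib had regions of both, and Myo10, Dlgap4, Tubd1, Zfp827 and Tns3 had none. Plec, the gene of the linker protein plectin, had 9 regions of myogenin alone, 6 of them with an E-box, and also 2 of both and 1 of p300 alone. Dlgap4 had 8 of myogenin alone, 6 with an E-box, and no region with p300. Over all regions of myogenin alone 59.3% held an E-box, and both counts were near that share. Myo10, the gene of an unconventional myosin of filopodia, had 9 of myogenin alone and 10 of p300 alone and none of both. Tubd1 had 9 of p300 alone, none with an E-box or an AP-1 site, and all 9 had been called for p300 in Ctl, beside 18.3%, 19% and 78.6% of all regions of p300 alone. Zfp827 had 9 of p300 alone, of which 3 had been called for p300 in Ctl, and Tns3 and Nfib, the genes of tensin 3 and nuclear factor I/B, had 8 each. Sorcs2 had 7 regions of myogenin alone, each with an E-box, and Mtss1, a membrane-bending protein gene, had 8, and both genes had 3 regions of both.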

How the data were processed

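ChIP-seq of myogenin and p300 was performed by the authors on 1 library per condition. Per the study's methods, reads were aligned to mm9 (BWA-MEM for myogenin, Bowtie for p300), duplicates were removed with Picard, and HOMER findPeaks (style factor, variable region length) gave the peaks of each library. The deposited peak lists used here give chromosome, start and end, and depth and peak strength cannot be read from these columns. The factors were sequenced on different machines, and differences in peak number between factors and differences in depth or processing cannot be told apart.

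The members and the gene lists were chosen with earlier results of these data known. Starts were read as counted from 0 and are printed from 1. The center of a region of both is that of its myogenin peak. TSS distances used 51723 protein-coding transcript records of GENCODE vM1 (NCBIM37, the mm9 build) in place of the RefSeq catalog of the study, and intron numbers refer to the longest protein-coding transcript. Sequences came from the same genome, and the mitochondrial peak of the myogenin list was left out of sequence counts. Flanking windows lay 2 kb from the center. Genes named are those of the lists with a region of both (at most 30, by number), the 10 genes with most regions of both and the 5 with most of either class alone; other genes of the lists were named after their values were seen. Mymk and Mymx were matched through Tmem8c and Gm7325. The Ctl lists were used for the presence of a peak and for the side-by-side shares of overlap. Alternatives changed the overlap rule, window, TSS catalog and distance, consensus, center, peak length and gene distance.

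Python 3.11.15 was used with numpy 2.4.6, pandas 2.3.3, scipy 1.17.1, pysam 0.24.0 and matplotlib 3.10.9. The functions for overlap, motifs, intervals and TSS were tested on simulated data in 8 steps of 400 items, and all 8 were recovered. The input and H3K27me3 libraries were not used here.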

Additional observations from a re-analysis of the deposited data

How the results depend on the processing

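Of 42 values recomputed under other settings, 15 stayed within the interval of the reported value (or within 1.5 times a count), 24 moved and 3 changed sign. The sign changes concern the E-box difference of both minus myogenin alone, which was -4.37 points among longer peaks (regions of both with both peaks longer than the shortest of their list), -0.93 points over 1 kb from a TSS and -3.90 points at the p300 center; it was 7.32 points within 100 bp and 7.36 points for CAGCTG alone. The E-box difference of both minus p300 alone was 51.3 points within 100 bp, 34.9 for any CANNTG, 39.6 for CAGCTG and 37.1 at the p300 center. The AP-1 difference of p300 alone minus both was 8.98 points among longer peaks, 9.32 over 1 kb from a TSS and 4.47 at the p300 center. The share of myogenin peaks that overlap p300 fell to 19.7% with centers within 100 bp and 17.2% with a reciprocal overlap of at least 50%; the share of p300 peaks was 14.3% and 12.5%, and 17.4% among longer peaks. The TSS difference of myogenin alone minus both was 6.52 points at 500 bp, 16.9 at 5 kb and 7.35 among longer peaks, and that of p300 alone minus both 7.30 at 5 kb and 6.83 among longer peaks. Ctl p300 was met by 77.8% and 71.8% of both, and by 13.8% and 11.8% of myogenin alone, under the center and reciprocal rules. The 222 pairs of list gene and class became 146 at 10 kb and 239 at 100 kb; for matrix genes, p300 alone was 9 and 16 of 20, and for sarcomere genes myogenin alone was 18 and 21 of 34. Of 90 counts of genes per list, class and distance, 63 stayed within 1.5 times and 27 did not, mostly at 10 kb, where sarcomere genes with both were 5, fusion genes with both and p300 alone 2 and 3, calcium genes with myogenin alone 2, Runx, Tead and Yap genes with both and p300 alone 4 and 5, focal adhesion genes with both and p300 alone 2 and 6, and ribosomal genes with myogenin alone 7. The shares of all genes also changed with the limit. For both, myogenin alone and p300 alone they were 1.66%, 7.78% and 8.28% at 10 kb, and 4.88%, 13.5% and 16.1% at 100 kb. A filter added after seeing the data kept regions whose peak of the factor shared by both compared classes was longer: the E-box difference was -2.09 points for both minus myogenin alone and 41.7 for both minus p300 alone, the AP-1 difference 9.05, and the TSS differences 6.77 for myogenin alone and 6.04 for p300 alone. Moves that follow from a narrower rule, such as fewer overlaps, are set by construction, and the cause of the others was not tested.

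No paired analysis was possible because each group has 1 library, and no replicate was left out for the same reason. Without chromosome 8 both overlap shares stayed within their intervals. Depth limits every class: a region of one factor alone is one where the other was not called, not one where it was absent.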
